A study of Mus musculus with 6 samples.

Results

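The semaphorin, plexin, ephrin, Eph, Slit, Robo, netrin and Unc5 genes were followed in mouse pulmonary microvascular endothelial cells, the cells that line the smallest vessels of the lung. Members were the protein-coding genes of these families, picked by gene symbol, and numbered 66 of 22046 protein-coding genes and of 55232 features in the deposited count table. In the repletion group (3 libraries), the endothelial cells had shared a chambered culture for 12 h with kidney tubular epithelial cells of the mouse line TCMK-1, which had been depleted of ATP and then repleted. In the control group (3 libraries), the partner cells were untreated TCMK-1 cells. The endothelial cells of both groups were themselves untreated and sat in the lower chamber. The labels call them a cell line and name no separate cultures behind the 3 libraries. The p-values therefore rest on the spread between libraries alone, and that spread may be technical. The study's title concerns lung injury after renal ischemia and reperfusion, and the comparison asks how endothelial RNA differs with the state of the kidney cells next to it.

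Guidance cues were first known from growing axons and also steer vessels. Semaphorins signal through plexins, the secreted class 3 members mostly with neuropilins as co-receptors. Ephrins are bound to the cell surface and signal to Eph receptor tyrosine kinases on a neighbouring cell, and the ephrin itself can signal backwards. Slits bind Robo receptors, and netrins bind DCC, neogenin and Unc5 receptors. In vessels these systems are known for setting arterial and venous boundaries, for repelling sprouts and for loosening or tightening the endothelial barrier.

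The libraries held 15582349 to 17817618 counts. The cells carried endothelial transcripts, led by Pecam1, Cdh5, Tie1 and Emcn, and the summed level of 10 endothelial markers was 2228 to 2543 CPM in the repletion group and 2283 to 2523 CPM in the control group. Single markers differed under these sums, with 3 higher and 1 lower in the repletion group of 9 tested. Erg had means of 83.6 CPM in the repletion group and 40.2 CPM in the control group, and Esam had 82.0 and 113 CPM. One of the 10, the tight junction gene Cldn5, was nearly absent, with 3 reads in all in the repletion group and 0 in the control group. CPM are read counts scaled to library size with TMM factors, which correct for composition. Of 12 tubular epithelial markers, Epcam, Krt18 and Slc34a1 had no read in any library, and the list summed to 8.20 to 14.4 CPM in the repletion group and 7.38 to 9.45 CPM in the control group. All 4 neuronal markers were at 0 in every library. The 8 leukocyte markers summed to 218 to 301 CPM in the repletion group and 389 to 428 CPM in the control group. Cd68 made up nearly all of this, with means of 255 CPM in the repletion group and 395 CPM in the control group. Lyz2 followed with means of 4.85 and 6.95 CPM. Ptprc had 4 and 0 reads in all, and Itgam and Cd3e had no read. The leukocyte sums are therefore values of Cd68, and no presence or number of leukocytes is read from them. The 4 lymphatic endothelial markers, led by Flt4 and Lyve1, summed to 114 to 129 CPM in the repletion group and 79.5 to 102 CPM in the control group, with 2 higher and 1 lower of 3 tested. Flt4 made up most of these sums, with means of 95.9 and 75.0 CPM. Pdpn had 0.657 and 1.93 CPM, and Prox1 had 19 and 3 reads in all. Among all tested features 20.5% were higher and 19.2% lower, and nothing is read from the counts of so few markers, lymphatic or endothelial. Fibroblast and mural markers summed to 19.1 to 25.5 CPM in the repletion group and 21.4 to 23.7 CPM in the control group, and lung epithelial markers to 0.898 to 1.76 CPM in the repletion group and 0.231 to 0.954 CPM in the control group. The part of these marker genes in the results below was not tested, and in such bulk RNA fewer cells of a type and less RNA per cell cannot be told apart.

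Guidance genes were more often higher than lower in the repletion group. Of the 66 members, 42 had enough reads to be tested, and of these 19 rose, 3 fell and 20 did not pass (adjusted p under 0.05, edgeR quasi-likelihood). Among all 13804 tested features, 20.5% rose and 19.2% fell, so the members' share of 45.2% higher lay above the background and their share of 7.14% lower lay below it. The median log2 fold change was 0.60 over the tested members and 0.00 over all tested features. In 21 members the repletion libraries all stood above the control libraries and in 5 all stood below, against 25% and 25.4% of all tested features. Ligands and receptors had like shares, with 12 of 25 tested ligands and 7 of 17 tested receptors higher. Gene length here is the deposited one, which counts exon bases and not the span on the chromosome. Tested members had a median length of 5.93 kb and a median GC content of 56.3%. These medians were not set beside those of all tested features, so members are not called long or rich in GC. With the trends in gene length and in GC content taken out of each library, 14 members were higher and 4 lower, with a median of 0.31, against 16.2% and 25.5% of all features. In that fit 2197 features were higher and 3465 lower in all, against 2830 and 2654 without it.

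**Figure D1:**
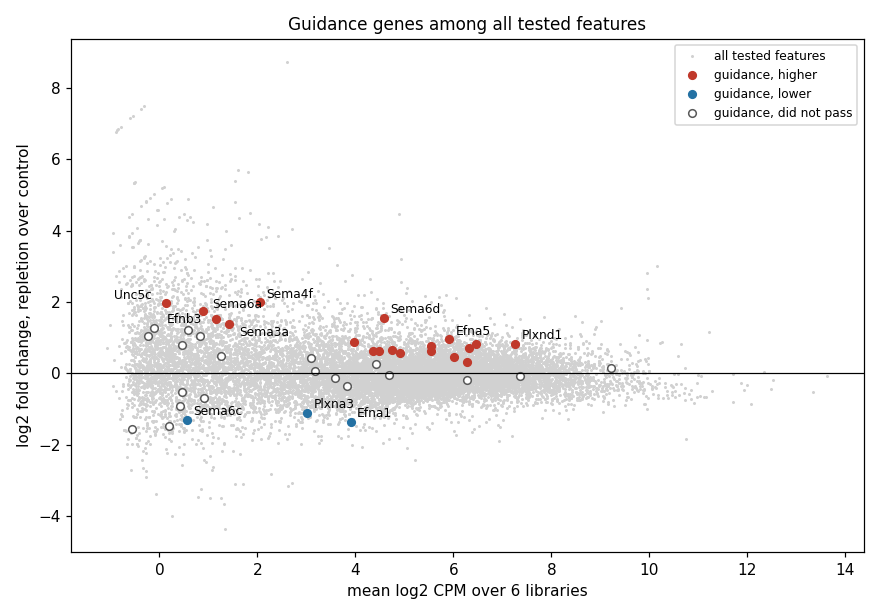
Mean log2 CPM over the 6 libraries (x axis) against the log2 fold change of repletion over control (y axis), for all 13804 tested features in grey and the 42 tested guidance genes as circles. The 19 filled red circles of genes that rose lie between 0.32 for Ephb4 and 1.99 for Sema4f, and the 3 blue ones that fell are Sema6c, Plxna3 and Efna1.

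The most abundant member per length was Plxnb2, a receptor for class 4 semaphorins, at 80.8 ± 3.15 CPM per kilobase in the repletion group and 73.1 ± 11.7 in the control group (SD, n = 3 each). By the mean over both groups, Plxnd1, Plxna1, Ephb4, Epha2 and Sema6b followed. In repletion cells the order after Plxnb2 was Plxnd1 (27.0 ± 2.84 CPM per kilobase), Efna5 (19.8 ± 1.70), Sema6b (18.8 ± 0.870), Ephb4 (18.6 ± 1.14), Plxna1 (17.7 ± 1.38) and Epha2 (15.6 ± 3.19), where Plxnd1 stood clear of the other 5 and neighbours among those 5 lay within their SDs. In control cells it was Plxna1 (18.5 ± 2.39), Epha2 (17.6 ± 1.55), Plxnd1 (15.2 ± 3.19), Ephb4 (14.9 ± 1.59) and Sema6b (13.7 ± 0.847), each within the SDs of its neighbour. No read of Epha3, Epha6, Ephb1, Ntng1, Ntng2, Robo2, Sema3e or Sema5b was counted in any library, which allows each up to 0.173 to 0.191 CPM per library (3 counts; counting error only). A further 16 members had 1 to 76 reads over all 6 libraries and were not tested.

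**Figure D2:**
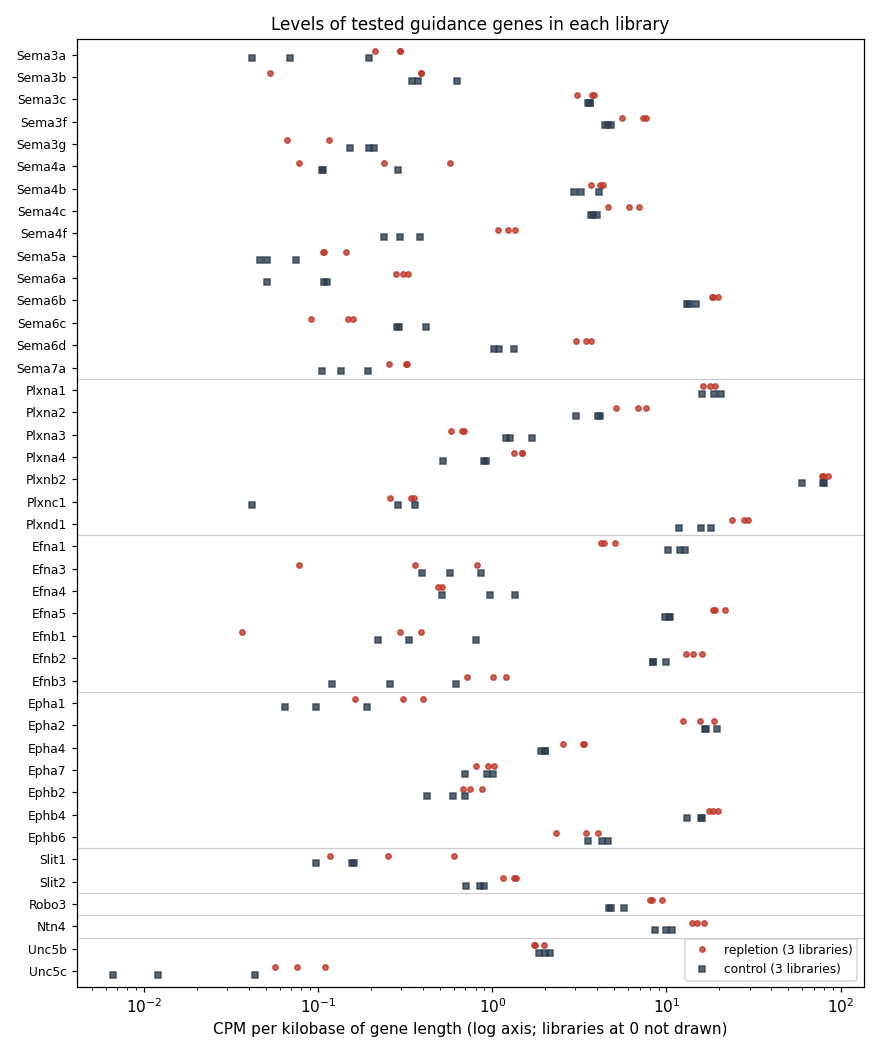
CPM per kilobase of gene length (log axis) of the 42 tested guidance genes in every library, repletion as red circles above control as dark squares, grouped by family from semaphorins at the top to Unc5 genes at the bottom. Plxnb2 stands apart at the right, and Unc5c, at 0.08 in the repletion group and 0.02 in the control group, has the lowest mean. Libraries with no read of a gene are not drawn.

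The 300-base windows around the starts of 4 members are shown because these genes carry the clearest changes of their families: Sema6d, Plxnd1 and Efna5 rose and Efna1 fell. Each runs from 250 bases before to 50 bases after a RefSeq start in GRCm38.p6, 5′ to 3′ on the gene's strand, and capitals mark the GC box GGGCGG or its reverse complement.
Sema6d, chr2:124089719-124090018, plus strand: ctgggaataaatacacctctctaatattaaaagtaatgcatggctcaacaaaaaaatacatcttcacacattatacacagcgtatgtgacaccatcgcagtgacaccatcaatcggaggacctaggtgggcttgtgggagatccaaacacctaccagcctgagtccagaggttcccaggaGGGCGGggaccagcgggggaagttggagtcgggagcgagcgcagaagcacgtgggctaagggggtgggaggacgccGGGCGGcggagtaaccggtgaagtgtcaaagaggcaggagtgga
Plxnd1, chr6:115994956-115995255, minus strand: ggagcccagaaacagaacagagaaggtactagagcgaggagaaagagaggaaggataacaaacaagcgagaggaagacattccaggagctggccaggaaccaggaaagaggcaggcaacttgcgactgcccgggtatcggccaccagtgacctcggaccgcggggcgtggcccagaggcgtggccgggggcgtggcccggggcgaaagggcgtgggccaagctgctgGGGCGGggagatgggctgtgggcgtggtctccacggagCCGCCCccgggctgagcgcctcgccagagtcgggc
Efna5, chr17:62881268-62881567, minus strand: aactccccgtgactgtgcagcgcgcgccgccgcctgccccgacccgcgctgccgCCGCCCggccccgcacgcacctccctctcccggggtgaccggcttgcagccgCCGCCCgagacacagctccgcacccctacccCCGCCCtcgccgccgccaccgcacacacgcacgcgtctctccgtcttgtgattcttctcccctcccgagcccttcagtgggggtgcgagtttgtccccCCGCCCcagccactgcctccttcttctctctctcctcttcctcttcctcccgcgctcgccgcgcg
Efna1, chr3:89280902-89281201, minus strand: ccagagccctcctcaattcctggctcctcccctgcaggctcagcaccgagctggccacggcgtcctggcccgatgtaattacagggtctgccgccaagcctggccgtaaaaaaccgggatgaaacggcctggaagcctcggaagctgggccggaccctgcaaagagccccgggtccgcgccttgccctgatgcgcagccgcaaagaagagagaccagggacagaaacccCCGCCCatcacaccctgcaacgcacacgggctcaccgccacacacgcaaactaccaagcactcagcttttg

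RefSeq windows were at hand for 57 members, 73 windows in all since some genes have several starts. The GC box stood in 77.8% of 18 windows of members that rose, in 83.3% of 24 windows of tested members that did not pass and in 35.7% of all 32851 windows. The TATA letters TATAAA stood in 2 of the 18 windows of members that rose, in 0 of the 24 windows of tested members that did not pass and in 13.6% of all windows. The AP-1 letters TGANTCA stood in 2, in 0 and in 7.81% of the same windows. The median window held 21 CpG for members that rose, 23 for tested members that did not pass and 7 over all windows. All motifs were searched on both strands, and a match is a description of the letters only.

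Among the semaphorins, the ligands of plexins, 7 of 15 tested genes rose, 1 fell and 7 did not pass. The shares of all tested features to set beside this and the family counts below are 20.5% higher and 19.2% lower. Sema6d (chromosome 2, 124089969 to 124667770 in GRCm38, like all positions of genes here), which encodes a transmembrane ligand of plexin A1, had 32.1, 36.5 and 38.7 CPM in the repletion libraries and 11.6, 14.1 and 10.8 CPM in the control libraries. All repletion libraries stood above all control libraries, a 2.94-fold rise with a log2 fold change of 1.56 ± 0.15 (SE) and an edgeR adjusted p of 1.21e-06. The log2 fold change was 1.27 once the length and GC trend was taken out. Sema4f (chromosome 6, 82911885 to 82939769), a transmembrane class 4 gene, had 5.72, 7.18 and 6.47 CPM in the repletion libraries and 2.04, 1.27 and 1.56 CPM in the control libraries. Its log2 fold change of 1.99 ± 0.31 was the largest of the tested members, with an edgeR adjusted p of 9.27e-05. Sema6a, a ligand of plexins A2 and A4, had 46, 39 and 48 counts in the repletion libraries and 7, 15 and 17 counts in the control libraries. It rose by 1.74 ± 0.47 (edgeR adjusted p of 0.00690).

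Sema6b and Sema4c were more abundant and rose less. Sema6b (chromosome 17, 56123085 to 56140343), a ligand of plexin A4, had 72.0, 78.6 and 73.4 CPM in the repletion libraries and 58.3, 51.9 and 53.2 CPM in the control libraries. The groups did not overlap, and the log2 fold change was 0.45 ± 0.11 (edgeR adjusted p of 0.00350). With the length and GC trend taken out it was 0.26 and did not pass (edgeR adjusted p of 0.0887, in a span of 4.43e-04 to 0.0887 across all processing settings tried). Sema4c (chromosome 1, 36548639 to 36558349), a ligand of plexin B2, had 21.2, 32.1 and 28.1 CPM in the repletion libraries and 17.4, 16.9 and 18.3 CPM in the control libraries. It rose by 0.63 ± 0.16 (edgeR adjusted p of 0.00533), and the repletion libraries varied more among themselves than the control libraries did. Of the Sema4c exon bases, 7.27% are also covered by D430040D24Rik on the other strand, and reads of the pair cannot be told apart here.

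Of the secreted class 3 semaphorins, Sema3f and Sema3a rose, and Sema3b, Sema3c and Sema3g did not pass. Sema3f (chromosome 9, 107681500 to 107710475), a neuropilin 2 ligand known to repel endothelial cells, had 39.7, 29.0 and 37.9 CPM in the repletion libraries and 22.9, 24.0 and 24.8 CPM in the control libraries. It rose by 0.57 ± 0.14 (edgeR adjusted p of 0.00455). Sema3a (chromosome 5, 13125414 to 13602565), a neuropilin 1 ligand known to open endothelial junctions, had 50, 65 and 68 counts in the repletion libraries and 15, 43 and 10 counts in the control libraries. The groups did not overlap, but control replicate 2 lay close to the repletion libraries. Its log2 fold change was 1.38 ± 0.47 (edgeR adjusted p of 0.0271), and 2.25 without that replicate. The call was lost once the length and GC trend was taken out (0.0826) and without control replicate 1 or 3 or repletion replicate 2 or 3 (0.0615 to 0.113), in a span of 0.00250 to 0.113 across settings. Sema3a also shares a stretch of 340 bases with Gm43431 at 95% identity or more, so its value is uncertain.

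Sema3c, another class 3 gene, had a log2 fold change of -0.04 ± 0.14 with 25.2 ± 3.03 CPM in the repletion group and 25.9 ± 0.363 CPM in the control group (SD, n = 3 each; edgeR adjusted p of 0.861). The gene of the class 3 ligand that binds plexin D1 without a neuropilin, Sema3e, had no read. Sema6c was the semaphorin that fell, by 1.31 ± 0.50 (edgeR adjusted p of 0.0441), with 16, 14 and 9 counts in the repletion libraries and 27, 39 and 29 counts in the control libraries. Its call was lost without any 1 of the 6 libraries (0.0636 to 0.172), with no filter (0.0649) and with library size only (0.0556), in a span of 0.0197 to 0.172 across settings. Sema3b, Sema3g, Sema4a, Sema4b, Sema5a and Sema7a did not pass, with log2 fold changes from -1.57 for Sema3g to 1.06 for Sema5a.

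Of 7 tested plexin genes, the semaphorin receptors, 3 rose, 1 fell and 3 did not pass. Plxnd1 (chromosome 6, 115954811 to 115995005), known for restraining vessel growth in endothelium, had 213, 174 and 204 CPM in the repletion libraries and 85.6, 132 and 115 CPM in the control libraries. The groups did not overlap, and the rise was 1.78-fold, a log2 fold change of 0.83 ± 0.14 (edgeR adjusted p of 1.6e-04). Once the length and GC trend was taken out, the log2 fold change was 0.60. Plxna2 (chromosome 1, 194618218 to 194816869), a receptor for class 6 semaphorins, had 131, 88.5 and 118 CPM in the repletion libraries and 51.7, 71.1 and 69.6 CPM in the control libraries. It rose by 0.81 ± 0.15 (edgeR adjusted p of 3.68e-04), and by 0.35 once the length and GC trend was taken out. Plxna4 (chromosome 6, 32144268 to 32588192), a receptor shared by class 3 and class 6 semaphorins, had 20.95, 18.9 and 20.96 CPM in the repletion libraries and 7.32, 12.9 and 12.6 CPM in the control libraries. Its rise was 0.89 ± 0.20 (edgeR adjusted p of 0.00194), or 0.53 with that trend taken out, and control replicate 1 stood lowest for Plxnd1, Plxna2 and Plxna4.

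Plxna3 moved the other way. This gene (chromosome X, 74329066 to 74344689) encodes a plexin that works with neuropilin 2, and had 5.25, 5.41 and 4.55 CPM in the repletion libraries and 9.42, 13.3 and 9.98 CPM in the control libraries. All repletion libraries stood below all control libraries, and it fell by 1.10 ± 0.22 on the log2 scale (edgeR adjusted p of 8.43e-04). Plxnb2 (chromosome 15, 89155549 to 89180788) had 605, 615 and 651 CPM in the repletion libraries and 460, 609 and 623 CPM in the control libraries. The groups overlapped, with a log2 fold change of 0.15 ± 0.11 (edgeR adjusted p of 0.334). Plxna1 (chromosome 6, 89316314 to 89362620), the partner of Sema6d, had 172, 147 and 161 CPM in the repletion libraries and 144, 187 and 171 CPM in the control libraries. Its log2 fold change was -0.06 ± 0.11 (edgeR adjusted p of 0.694). It was -0.27 and passed once the length and GC trend was taken out (0.0237, in a span of 0.0237 to 0.995 across settings), and 10.7% of its exon bases overlap Gm26811 on the other strand. Plxnc1, the receptor of Sema7a, stood at 0.48 ± 0.52 and did not pass, and Plxnb1 and Plxnb3 had 5 and 41 reads in all.

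**Figure D3:**
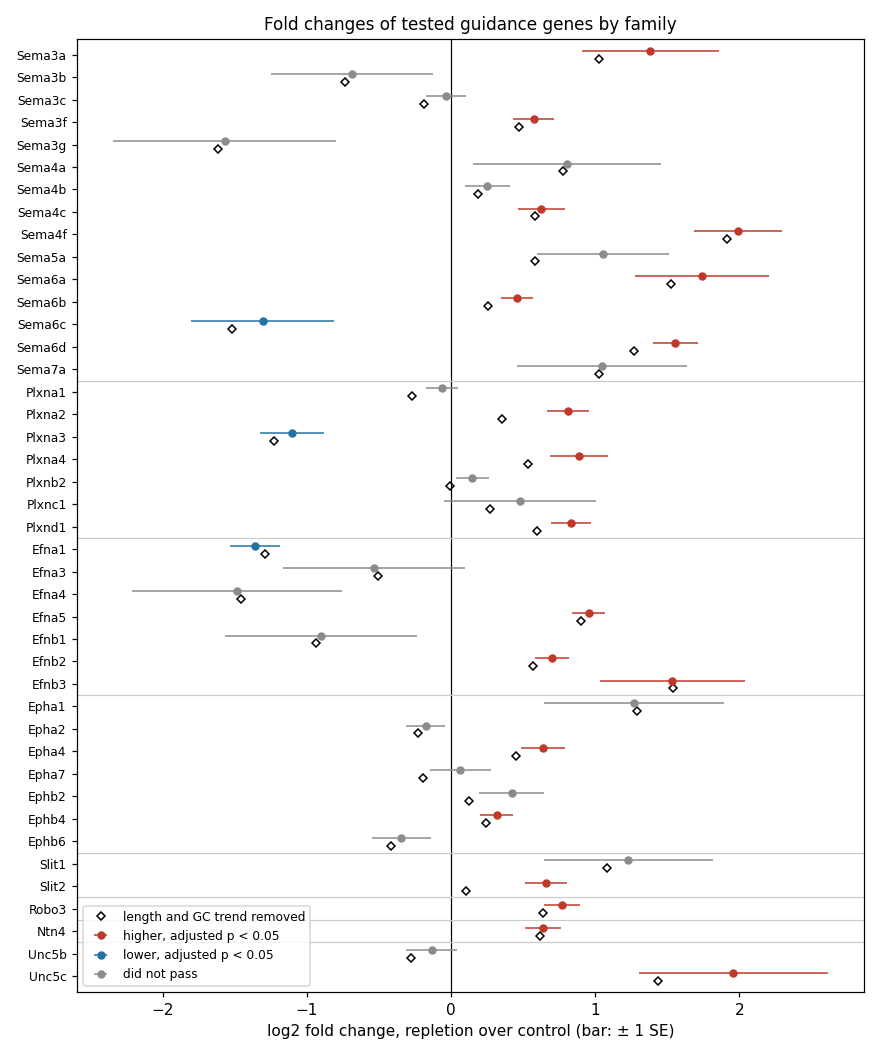
Log2 fold change of repletion over control (circles, bars of 1 SE) for the 42 tested guidance genes by family, in red for genes that rose, blue for genes that fell and grey for genes that did not pass, with the value once the length and GC trend was taken out as an open diamond. In 37 of 42 genes the diamond lies left of the circle, and the gap is widest for Slit2, at 0.10 against 0.66. The median of all features also moved down in that fit, from 0.00 to -0.09, so a leftward move is not particular to guidance genes.

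Of 7 tested ephrin genes, 3 rose, 1 fell and 3 did not pass. Efna5 (chromosome 17, 62604184 to 62881317), which encodes an ephrin held by a lipid anchor, had 74.8, 87.6 and 76.9 CPM in the repletion libraries and 42.3, 41.4 and 39.6 CPM in the control libraries. Repletion libraries all stood higher, a 1.94-fold rise with a log2 fold change of 0.96 ± 0.11 (edgeR adjusted p of 8.07e-06). Efna1 (chromosome 3, 89271733 to 89281142), an anchored ephrin known as a product of activated endothelium, had 7.70, 7.99 and 9.22 CPM in the repletion libraries and 18.7, 21.8 and 23.5 CPM in the control libraries. It fell by 1.36 ± 0.17 on the log2 scale (edgeR adjusted p of 1.45e-05), so that control cells held 2.57 times the level of repletion cells. In CPM per kilobase, Efna5 stood at 19.8 ± 1.70 and Efna1 at 4.54 ± 0.440 in the repletion group (SD, n = 3 each). In the control group they stood at 10.2 ± 0.341 and 11.7 ± 1.33, within their SDs of each other, so no order is read there.

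Efnb2, the transmembrane ephrin that marks arterial endothelium (chromosome 8, 8617434 to 8661242), had 88.5, 110 and 97.2 CPM in the repletion libraries and 67.7, 57.6 and 57.0 CPM in the control libraries. The groups did not overlap, and it rose by 0.70 ± 0.12 (edgeR adjusted p of 2.04e-04). Efnb3, another transmembrane ephrin gene, had 39, 51 and 64 counts in the repletion libraries and 13, 6 and 34 counts in the control libraries, and rose by 1.53 ± 0.50 (edgeR adjusted p of 0.0220). The rise was 2.34 without control replicate 3, and the call was lost without control replicate 1 or 2 or repletion replicate 3 (0.0701 to 0.102, in a span of 0.00467 to 0.102 across settings). Efna3, Efna4 and Efnb1 had log2 fold changes of -0.53, -1.48 and -0.90 and did not pass, with SEs of 0.63 to 0.73. Exons of Efna3 and Efna4 overlap genes on the other strand over 14.1% and 10.5% of their bases.

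Of 7 tested Eph receptor genes, 2 rose and 5 did not pass, a share of 28.6% higher against 20.5% of all tested features. With 7 genes nothing is read from the difference. Epha4 (chromosome 1, 77367185 to 77515088), a receptor for ephrins of both classes, had 20.6, 26.7 and 27.1 CPM in the repletion libraries and 16.2, 16.2 and 15.4 CPM in the control libraries. It rose by 0.64 ± 0.15 (edgeR adjusted p of 0.00347), with repletion replicate 1 nearest to the control libraries. Once the length and GC trend was taken out, the rise was 0.45. Ephb4 (chromosome 5, 137350109 to 137378669), the venous receptor of ephrin-B2, had 81.4, 85.4 and 91.9 CPM in the repletion libraries and 60.7, 73.7 and 73.1 CPM in the control libraries. Its rise of 0.32 ± 0.11 was the smallest that passed (edgeR adjusted p of 0.0338). The call was lost once the length and GC trend was taken out (0.0669), with no filter (0.0940) and without control replicate 1, 2 or 3 or repletion replicate 2 or 3 (0.0514 to 0.184), in a span of 0.0143 to 0.184 across settings.

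Epha2 (chromosome 4, 141301240 to 141329384), the main receptor of ephrin-A1 in endothelium, had 87.8, 58.0 and 72.8 CPM in the repletion libraries and 77.9, 90.7 and 78.6 CPM in the control libraries. The groups overlapped, with a log2 fold change of -0.18 ± 0.14 (edgeR adjusted p of 0.319). Without repletion replicate 1 it was -0.34 and past the threshold (0.0415, in a span of 0.0415 to 0.814 across settings). Epha1, Epha7, Ephb2 and Ephb6 did not pass, with log2 fold changes from -0.34 for Ephb6, a receptor without kinase activity, to 1.27 for Epha1. The other 7 Eph genes had too few reads, led by Ephb3 with 47 in all.

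Slit and Robo genes were represented mainly by Slit2 and Robo3. Slit2 (chromosome 5, 47983138 to 48307733), which encodes a secreted Robo ligand, had 33.9, 29.3 and 34.9 CPM in the repletion libraries and 22.8, 21.6 and 17.9 CPM in the control libraries. The groups did not overlap, and it rose by 0.66 ± 0.14 (edgeR adjusted p of 0.00172). With 25.4 kb of exon bases it is the longest member in exons, though not in span on the chromosome. Once the length and GC trend was taken out, the log2 fold change of Slit2 was 0.10 and did not pass (0.598, in a span of 1.63e-04 to 0.634 across settings). Slit1 had 61, 11 and 25 counts in the repletion libraries and 9, 15 and 16 counts in the control libraries, a log2 fold change of 1.23 ± 0.59 (edgeR adjusted p of 0.105), and was past the threshold without repletion replicate 2 (0.0288, in a span of 0.0288 to 0.666 across settings). Slit3 had 5, 0 and 6 counts in the repletion libraries and none in the control libraries.

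Robo3 (chromosome 9, 37415669 to 37433246), a receptor known from axons crossing the midline that in mammals binds Slits poorly, had 55.3, 56.8 and 64.8 CPM in the repletion libraries and 32.9, 39.1 and 31.9 CPM in the control libraries. It rose by 0.77 ± 0.13 (edgeR adjusted p of 1.7e-04). Its neighbour Robo4, the endothelial Robo that steadies the barrier, ends 553 bases from the end of Robo3 on the opposite strand (37401897 to 37415115). Robo4 had 127, 123 and 135 CPM in the repletion libraries and 73.3, 85.5 and 89.6 CPM in the control libraries, and rose by 0.63 ± 0.11 (edgeR adjusted p of 2.29e-04). The exons of the pair do not overlap, and whether transcripts of one run into the other was not tested. Robo1, the widespread Slit receptor, had 5, 6 and 0 counts in the repletion libraries and none in the control libraries.

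Netrin and Unc5 genes gave 2 rises among 3 tested genes. Ntn4 (chromosome 10, 93640681 to 93747207), which encodes a netrin of basement membranes, had 52.8, 56.3 and 61.6 CPM in the repletion libraries and 40.4, 32.0 and 37.2 CPM in the control libraries. It rose by 0.64 ± 0.13 (edgeR adjusted p of 7.93e-04), and the value was 0.62 once the length and GC trend was taken out. Unc5c, a netrin receptor gene, had 36, 23 and 18 counts in the repletion libraries and 13, 2 and 4 counts in the control libraries, and rose by 1.96 ± 0.66 (edgeR adjusted p of 0.0247). The rise was 3.03 without control replicate 1, and the call was lost once the length and GC trend was taken out (0.0948) and without control replicate 2 or 3 or repletion replicate 1 (0.107 to 0.120), in a span of 0.00763 to 0.120 across settings. Unc5b, the netrin receptor of endothelium, had 12.3, 10.8 and 10.96 CPM in the repletion libraries and 12.6, 11.5 and 13.3 CPM in the control libraries, which overlapped (log2 fold change of -0.14 ± 0.18, edgeR adjusted p of 0.571).

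Ntn1, the founding secreted netrin, missed the filter on low counts, with 6, 33 and 30 counts in the repletion libraries and 0, 3 and 4 counts in the control libraries. With no filter its log2 fold change was 3.21 (edgeR adjusted p of 0.00102), and the authors' deposited table gives it 3.31 with an adjusted p of 0.00567. Against the authors' deposited table, 21 of the 22 members that changed here also had an adjusted p under 0.05 there. Sema6c passed here and not there, and Ntn1 passed there. In the authors' deposited table, 20 members were higher and 2 lower of 57 with an adjusted p, against 11.4% and 10.1% of the 24680 features there with an adjusted p.

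**Figure D4:**
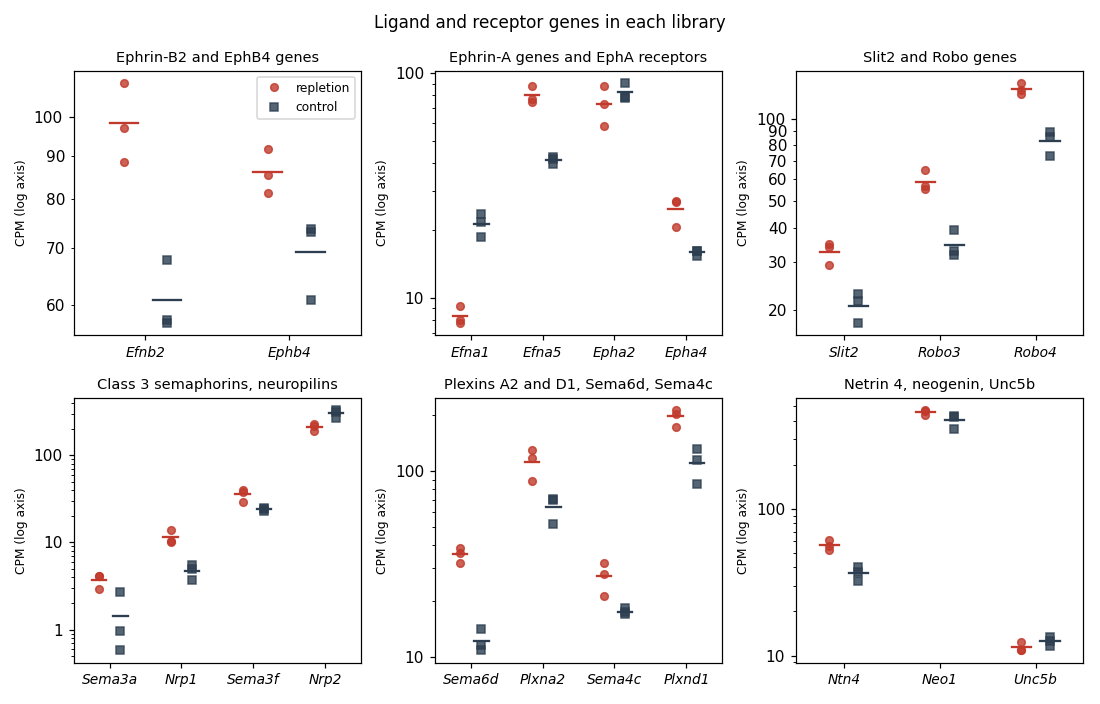
CPM (log axis) of ligand and receptor genes in every library, repletion as red circles left of control as dark squares, with a line at each group's mean. Efnb2, Efna5, Slit2, Robo3, Robo4 and Ntn4 are higher in every repletion library than in any control library, Efna1 and Nrp2 are lower, and Epha2 and Unc5b overlap.

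Of 16 tested genes on a list of co-receptors and other ligands of these systems, 5 rose, 3 fell and 8 did not pass. These are shares of 31.3% and 18.8%, against 20.5% and 19.2% of all tested features, and with 16 genes nothing is read from the difference. Nrp1 (chromosome 8, 128358604 to 128503363), the neuropilin that receives Sema3a, had 13.9, 10.5 and 10.0 CPM in the repletion libraries and 4.90, 5.46 and 3.75 CPM in the control libraries. It rose by 1.29 ± 0.23 (edgeR adjusted p of 3.17e-04), and by 1.04 with the length and GC trend taken out. Nrp2 (chromosome 1, 62703285 to 62818695), the neuropilin that receives Sema3f, had 231, 190 and 219 CPM in the repletion libraries and 267, 312 and 331 CPM in the control libraries. It fell by 0.51 ± 0.11 on the log2 scale (edgeR adjusted p of 0.00163), and by 0.82 with the length and GC trend taken out. In CPM per kilobase Nrp2 stayed the more abundant of the pair, at 18.0 against 1.17 for Nrp1 in the repletion group and 25.6 against 0.48 in the control group.

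Flrt2, a membrane ligand of Unc5 receptors, had 27.0, 31.3 and 33.3 CPM in the repletion libraries and 14.7, 12.4 and 11.1 CPM in the control libraries, and rose by 1.26 ± 0.16 (edgeR adjusted p of 1.2e-05). Draxin, a secreted protein that binds netrin and its receptor DCC, had 146, 91 and 110 counts in the repletion libraries and 34, 12 and 28 counts in the control libraries, and rose by 2.19 ± 0.35 (edgeR adjusted p of 1.28e-04). The integrin subunit gene Itgb1 fell by 0.36 ± 0.09 (edgeR adjusted p of 0.00514). Sdc1, a heparan sulphate proteoglycan gene, fell by 0.34 ± 0.13 (edgeR adjusted p of 0.0437), and its call was lost once the length and GC trend was taken out (0.0519), with library size only (0.0911) and without control replicate 1 or 3 or repletion replicate 1 or 3 (0.0544 to 0.196), in a span of 0.0144 to 0.196 across settings. Neo1, the neogenin receptor gene, was abundant at 458 ± 20.4 CPM in the repletion group and 402 ± 44.8 CPM in the control group (SD, n = 3 each) and did not pass (log2 fold change of 0.19 ± 0.10, edgeR adjusted p of 0.162). Dcc, the classical netrin receptor gene, had 1 read in all.

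Of 61 tested genes that carry the signal inside the cell, 19 rose, 10 fell and 32 did not pass, shares of 31.1% and 16.4% against 20.5% and 19.2% of all tested features, with a median log2 fold change of 0.13. Once the length and GC trend was taken out, 10 were higher and 15 lower, with a median of 0.02. All features turned the same way in that fit, with 16.2% higher, 25.5% lower and a median of -0.09. Nothing particular to these genes is therefore read from the turn. Abl2, an actin-binding kinase gene, rose by 0.73 ± 0.11 (edgeR adjusted p of 9.39e-05), and Sipa1l1, a Rap regulator gene, by 0.86 ± 0.14 (edgeR adjusted p of 1.77e-04). Their rises were 0.44 and 0.54 with that trend taken out. Arhgef15, a gene known from endothelial cells, rose by 0.51 ± 0.11 (edgeR adjusted p of 0.00115). Cfl1, the gene of the actin-severing protein cofilin, fell by 0.68 ± 0.11 (edgeR adjusted p of 1.47e-04). Ranbp9, a plexin A scaffold gene, fell by 0.43 ± 0.11 (edgeR adjusted p of 0.00481), and Mical1, an actin-oxidising plexin effector gene, fell by 0.63 ± 0.16 (edgeR adjusted p of 0.00521). Exons of Cfl1, Mical1 and Ranbp9 overlap genes on the other strand over 16.5%, 15.0% and 8.83% of their bases, and Cfl1 also shares sequence with Gm6180, so these values are uncertain. The list counted 29 changed genes, and 19 without control replicate 3 or repletion replicate 3.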

How the data were processed

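RNA-seq libraries of 3 repletion and 3 control samples were grouped by their titles. HISAT2 2.0.5, featureCounts 1.5.0-p3, DESeq2 1.20.0 and the build GRCm38.p6 are named, without roles, in the submitters' processing notes. Strand setting and annotation release: not given in the sources used here. The deposited raw read counts were used for all tests. The deposited FPKM and group means of normalised signal were not used. The authors' log2 fold changes (repletion over control), p-values and adjusted p-values are named so per the file headers, and fold changes and adjusted p were quoted.

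In R 4.3.3, filterByExpr left 13804 features and removed 41428. TMM factors were 0.970 to 1.03. The quasi-likelihood test of edgeR 4.0.16 was two-sided, with Benjamini-Hochberg adjustment over all tested features, a threshold of 0.05 and SEs from the F statistic, and was checked on simulated counts. Alternatives were DESeq2 1.42.0, limma-voom (limma 3.58.1), other scaling (RLE, library size, upper quartile), other filters (none, or 1 CPM in 3 samples), protein-coding genes alone, a replicate block, each library left out, and trends with gene length or with length and GC content taken out (mgcv 1.9.3). Exon overlaps, GC content and copies (BLAST 2.17.0) came from GENCODE M21 on GRCm38. Promoter windows came from RefSeq.

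The members and lists were chosen with earlier results of these data known. Per-library values were given for members past the threshold that had a mean log2 CPM of 1 or more and groups without overlap, for the 6 most abundant per kilobase and for those whose call changed under an alternative. On the partner lists, the 3 smallest p in each direction were named, with Nrp1, Nrp2, Robo4, Neo1, Flrt2 and Arhgef15. One gene so chosen is not reported here. Other genes given with values were picked once their values were known.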

Additional observations from a re-analysis of the deposited data

How the results depend on the processing

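Of the 22 guidance genes that changed, 15 kept their call under every alternative, and none changed direction; the other 7 are Sema3a, Sema6b, Sema6c, Efnb3, Ephb4, Slit2 and Unc5c, with values in the report. DESeq2, limma-voom, RLE factors, upper quartile factors, a minimum of 1 CPM in 3 samples and protein-coding genes only each called the same 22. The count of higher members was 14 to 19 over all alternatives and that of lower members 2 to 4; leaving out 1 library gave 16 to 19 and 2 to 3. The median log2 fold change of 0.60 was 0.45 with the length trend removed and 0.31 with the length and GC trend removed, and 0.48 to 0.58 with 1 library left out. The median of all features was 0.13 with no filter and -0.09 with the length and GC trend removed. Signal genes past the threshold numbered 19 to 28 with 1 library left out, against 29.

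Same-numbered libraries did not deviate together (correlations of -0.08, -0.03 and 0.06 across features), so the numbers were not taken to pair them. With a replicate block, 18 members were higher and 2 lower, and the calls of Ephb4 (0.0548), Sema6c (0.0716) and Sdc1 (0.0607) were lost.

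Genes that did not pass crossed 0 under some alternatives, with no call at these values. With the length and GC trend removed, Epha7 (0.06) was -0.20, Plxnb2 -0.0059 and Neo1 -0.026, and Epha7 was -0.13 with the length trend removed. Sema3c was 0.025 with library size only. With 1 library left out, log2 fold changes were -0.10 to 0.17 for Epha7, -0.18 to 0.0045 for Plxna1, -8e-04 to 0.21 for Plxnb2, -0.034 to 0.94 for Plxnc1, -0.10 to 0.056 for Sema3c and -0.093 to 1.45 for Sema4a. The 24 untested members had 0 to 76 reads over the 6 libraries, and missed the filter on low counts.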

Other observations

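Some sparsely read members had their lowest count of all 6 libraries in repletion replicate 2, and others had their highest there. In repletion replicates 1, 2 and 3 and then control replicates 1, 2 and 3, Efna4 had 14, 0 and 13 and then 34, 13 and 27 counts, Efnb1 had 23, 2 and 17 and then 12, 18 and 48, and Sema3b had 32, 4 and 31 and then 28, 26 and 52. Efna3 had 15, 3 and 33 counts in the repletion libraries and 15, 33 and 24 in the control libraries. The other way, Sema4a had 22, 49 and 7 counts in the repletion libraries and 9, 9 and 27 in the control libraries. Epha1 had 11, 25 and 20 and then 4, 6 and 13. All these genes were picked after their values were seen, and none of them passed the test. No trait of that library is read from them. Sema4g, a transmembrane semaphorin gene that missed the filter, had 17, 11 and 9 counts in the repletion libraries and 1, 4 and 2 counts in the control libraries. With no filter its log2 fold change was 2.27 (edgeR adjusted p of 0.110).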
